A study of Homo sapiens with 24 samples.

Results

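Matrix metalloproteinases and their tissue inhibitors were followed after a scratch wound in H838 cells, an established line from a human non-small cell lung carcinoma. The family was taken as 10 genes, namely MMP1, MMP2, MMP7, MMP9, MMP10, MMP14, MMP15, TIMP1, TIMP2 and TIMP3, and every probe annotated to one of these symbols was used. These were 12 probes among the probes of 20031 named genes, and 6 of the 10 genes passed the filter on dim probes, among 11494 genes tested. MMP1, the interstitial collagenase, MMP9, a gelatinase, and TIMP1, their inhibitor, were lower on average over 10, 15 and 24 h after the scratch than in unscratched cells. None of the 6 tested genes passed the test of a difference between the co-cultures.

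The study profiled confluent H838 monolayers grown in wells below a porous transwell filter. The filter carried HPAEC, primary human pulmonary artery endothelial cells, in the heterogeneous co-culture, and further H838 cells in the homogeneous control. Lysates of scratched cells were made at 9 times, which fall into an early window (0.5, 1 and 2 h), a middle one (3, 4 and 5 h) and a late one (10, 15 and 24 h). The 0 h lysates came from unscratched cells. There were 12 arrays of H838 cells beside HPAEC and 12 of H838 cells beside H838, in each case with duplicates at 0 h and 24 h and a single array at the remaining times. All wells of both co-cultures held endothelial growth medium with low serum, EGF, bFGF, an IGF analog, VEGF, ascorbic acid, heparin and hydrocortisone. No unscratched array was made after 0 h, so the scratch and the hours in culture cannot be told apart. Only H838 cells were lysed, and secreted protein or enzyme activity was not measured.

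Metalloproteinases are zinc enzymes that cells secrete or anchor in their membrane as inactive precursors and that cut collagens, laminins, other proteases and growth factor precursors. Collagenases open native fibrillar collagen, gelatinases digest denatured collagen and basement membrane collagen, and stromelysins such as MMP10 have broad substrates and activate other precursors. TIMP proteins bind the active enzymes and block them, and TIMP2 together with the membrane enzyme MMP14 also takes part in activating the MMP2 precursor. Carcinoma cells and the stroma around them both contribute these proteins, and migrating epithelial cells at wound edges are known for MMP1 and MMP10.

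The arrays lay on 2 BeadChips of 12. Chip 1 held 10 arrays beside HPAEC and 2 beside H838, and chip 2 held 2 beside HPAEC and 10 beside H838, so the tests of the co-cultures were adjusted for chip. Both replicate 2 arrays of the HPAEC group name H838 as second cell line in 1 label, while their titles and co-culture labels name HPAEC. They were kept in the HPAEC group. Without them the limma co-culture test called 0 of 11494 genes (1385 at an unadjusted p under 0.05), against 232 with them. Arrays detected between 32.8% and 37.1% of their probes at a detection p-value under 0.01. Of 20 probes for endothelial markers 13 were detected on 0 arrays, the probes of the defining genes VWF, CDH5 and KDR among them. MMRN1 was detected on 24 arrays and rose late (0.27, limma adjusted p = 0.0458), and EGFL7 was detected on 21 and passed the time test (adjusted p = 0.0346), with its widest difference of -0.74 at 3 h. The summed raw intensity of the endothelial list was 2133 to 2341 in the HPAEC group and 2157 to 2400 in the H838 group. Among epithelial markers EPCAM was detected on 24 arrays and KRT18 on 21, but KRT8 on 2, KRT19 on 1 and KRT7 on 0. CDH1, the epithelial cadherin, was detected on 4 arrays and passed the time test (limma adjusted p = 0.00829). The labels do not say whether duplicate arrays came from separate cultures, so p-values measure the spread between these arrays, which may be technical.

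The family split into genes with a signal on nearly all arrays and genes at background. Probes of MMP1, MMP10, TIMP1 and TIMP2 were detected on all 24 arrays. The MMP9 probe was detected on 23 and the MMP15 probe on 21 (10 beside HPAEC and 11 beside H838). On the other side, the single probes of MMP2, the other gelatinase, MMP14, the leading membrane-type enzyme, and TIMP3, the inhibitor that binds to matrix, were detected on 0 arrays. The same held for both probes of MMP7, the small epithelial enzyme matrilysin. Raw intensities of these undetected probes ranged from 73.2 to 94.7 for MMP2, 70.4 to 92.5 for MMP14 and 73.3 to 95 for TIMP3, and the brighter MMP7 probe gave 83.1 to 121. Their lowest detection p-values were 0.488 for MMP2, 0.63 for MMP14, 0.627 for TIMP3 and 0.213 for MMP7. These transcripts were not detectable with these probes, which does not show that they were absent, and they are not tested further.

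**Figure D1:**
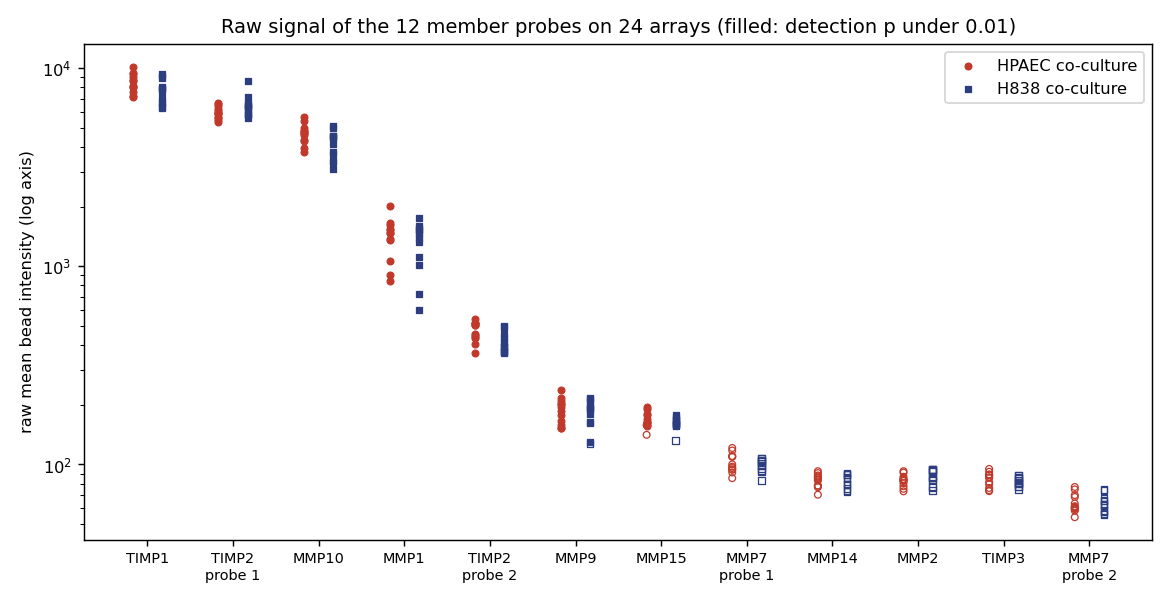
Raw mean bead intensity (log axis) of the 12 probes of the 10 genes on each array, with circles for the HPAEC co-culture and squares for the H838 co-culture, filled where the detection p-value was under 0.01. The 5 probes of MMP2, MMP7, MMP14 and TIMP3 are open on all 24 arrays. Heights of different probes are not comparable as transcript levels.

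On chromosome 11 several metalloproteinase genes lie side by side, in the RefSeq order MMP7, MMP20, MMP27, MMP8, MMP10, MMP1, MMP3, MMP12 and MMP13. Only the neighbours MMP10 and MMP1 in this row of 9 genes were detected on all 24 arrays. MMP20, the enamel enzyme, was detected on 3 arrays and the other 6 on 0. The proximal promoters of MMP10, MMP7 and TIMP1 are shown because they pair a detected and an undetected gene of the cluster with the inhibitor that was lower after the scratch. RefSeq promoter windows (GRCh38.p14) were at hand for 6 of the 10 genes (MMP7, MMP10, MMP14, MMP15, TIMP1 and TIMP3), and the 250 bases before the annotated start were searched on both strands. Capitals mark matches on either strand to 3 motifs. The AP-1 motif, a binding site of Fos and Jun proteins, was searched as TGANTCA. The TATA box, which places the start of transcription, was searched as TATAAA. The GC box, a site of Sp1, was searched as GGGCGG. None of these matches overlap.
MMP10, chr11:102780629-102780878, minus strand: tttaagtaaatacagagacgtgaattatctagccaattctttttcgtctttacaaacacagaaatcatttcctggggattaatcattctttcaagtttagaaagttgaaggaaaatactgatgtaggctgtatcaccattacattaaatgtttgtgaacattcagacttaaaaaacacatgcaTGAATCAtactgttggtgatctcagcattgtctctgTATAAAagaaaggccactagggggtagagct
MMP7, chr11:102530748-102530997, minus strand: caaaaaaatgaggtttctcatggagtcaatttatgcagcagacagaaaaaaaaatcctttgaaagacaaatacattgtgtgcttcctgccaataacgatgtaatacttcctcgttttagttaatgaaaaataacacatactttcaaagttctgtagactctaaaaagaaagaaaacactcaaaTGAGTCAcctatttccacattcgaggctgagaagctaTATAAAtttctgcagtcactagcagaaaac
TIMP1, chrX:47582186-47582435, plus strand: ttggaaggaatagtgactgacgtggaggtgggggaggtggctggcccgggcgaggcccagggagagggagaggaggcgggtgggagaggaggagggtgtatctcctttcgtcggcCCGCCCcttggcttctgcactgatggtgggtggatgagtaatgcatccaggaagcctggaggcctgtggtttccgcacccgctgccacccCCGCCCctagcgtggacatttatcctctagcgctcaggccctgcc
The MMP10 and MMP7 windows each held 1 AP-1 match that began 67 bases before the start, written TGAATCA in MMP10 and TGAGTCA in MMP7. Each also held 1 TATA box, 31 bases before the start in MMP10 and 30 in MMP7. The TIMP1 window held 2 GC boxes, 135 and 45 bases before the start, and no match to the AP-1 or TATA letters. Only exact letters were searched, so sites that differ by any letter were not marked. A window without a match may therefore still hold such a site. Neither the AP-1 nor the TATA letters were found in the windows of MMP14, MMP15 and TIMP3, which held 1, 5 and 5 GC boxes. Among all 35116 RefSeq windows of this length, 6.57% held the AP-1 letters, 10.7% the TATA box and 42.6% a GC box. GC content was 34.4% for MMP10, 33.6% for MMP7 and 64.8% for TIMP1, against a median of 58.0% over all windows. The undetected MMP7 and the detected MMP10 thus held the same motifs at nearly the same places. Letters in a window say nothing about whether a factor was bound in these cells.

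MMP1 cuts native collagens I, II and III, the step that lets other proteases degrade the fibre. At 24 h its normalized log2 intensity was 9.54 and 9.93 beside HPAEC and 9.28 and 9.15 beside H838. At 0 h it was 10.70 and 10.89 beside HPAEC and 10.39 and 10.45 beside H838. All 4 arrays at 24 h lay below all 4 at 0 h. In a limma fit of these 8 arrays with chip as a term, MMP1 fell by 1.18 ± 0.08 on the log2 scale (SE, 2.27-fold lower, adjusted p = 0.0043). In bulk lysates, fewer cells making a transcript and less transcript per cell cannot be told apart.

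The arrays at single times placed the lower MMP1 values late. Beside HPAEC the log2 intensity was 10.43, 10.57 and 10.36 at 0.5, 1 and 2 h, 10.46, 10.54 and 10.49 at 3, 4 and 5 h, and 10.25 and 9.68 at 10 and 15 h. Beside H838 it was 10.41, 10.60 and 10.69 at 0.5, 1 and 2 h, 10.20, 10.32 and 10.35 at 3, 4 and 5 h, and 9.91 and 10.16 at 10 and 15 h. The highest array at 10, 15 or 24 h, at 10.25, lay below the lowest unscratched array, at 10.39. In the limma fit to all 24 arrays, with terms for time, co-culture and chip, MMP1 differed from 0 h by -0.05 ± 0.12 in the early window (adjusted p = 0.894) and by -0.22 ± 0.12 in the middle window (adjusted p = 0.253). It fell by 0.80 ± 0.12 in the late window (adjusted p = 0.000435), and time by time by 0.53 at 10 h, 0.69 at 15 h and 1.19 at 24 h (adjusted p = 0.0472, 0.019 and 7.39e-05), times at which 4.99%, 3.25% and 5.62% of all genes were called lower.

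MMP9 digests gelatin and the type IV collagen of basement membranes. At 24 h its log2 intensity was 6.26 and 6.24 beside HPAEC and 5.86 and 5.71 beside H838. At 0 h it was 6.96 and 7.33 beside HPAEC and 6.91 and 6.99 beside H838. The groups did not overlap, and the change over the 8 arrays was -1.06 ± 0.09 (limma adjusted p = 0.00564). The H838 arrays at 24 h reached the detection floor. On replicate 1 the value of 5.86 equalled the lowest of any detected probe on that array, and on replicate 2 the probe had a detection p-value of 0.0508. The size of the change therefore depends on the background correction, and was -0.52 without it and -0.51 in the authors' normalized values, both past the threshold (limma adjusted p = 1.79e-05 and 2.66e-05).

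Before 10 h MMP9 was scattered. Beside HPAEC it was 6.58, 7.05 and 6.82 at 0.5, 1 and 2 h, 6.78, 6.53 and 6.87 at 3, 4 and 5 h, and 6.29 and 6.12 at 10 and 15 h. Beside H838 it was 6.91, 6.29 and 6.80 at 0.5, 1 and 2 h, 6.88, 6.76 and 6.77 at 3, 4 and 5 h, and 6.42 and 6.38 at 10 and 15 h. A single low array stood at 1 h beside H838, while the 8 late arrays, at 5.71 to 6.42, all lay below the 4 unscratched ones, at 6.91 to 7.33. MMP9 fell by 0.85 ± 0.13 in the late window (limma adjusted p = 0.000748). The changes were -0.69 at 10 h, -0.79 at 15 h and -1.06 at 24 h (adjusted p = 0.0267, 0.019 and 0.000549), against -0.28 ± 0.14 in both the early and the middle window (adjusted p = 0.442 and 0.193). The size depends on the background correction for this dim probe, and without that correction the late change was -0.42 and still past the threshold.

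**Figure D2:**
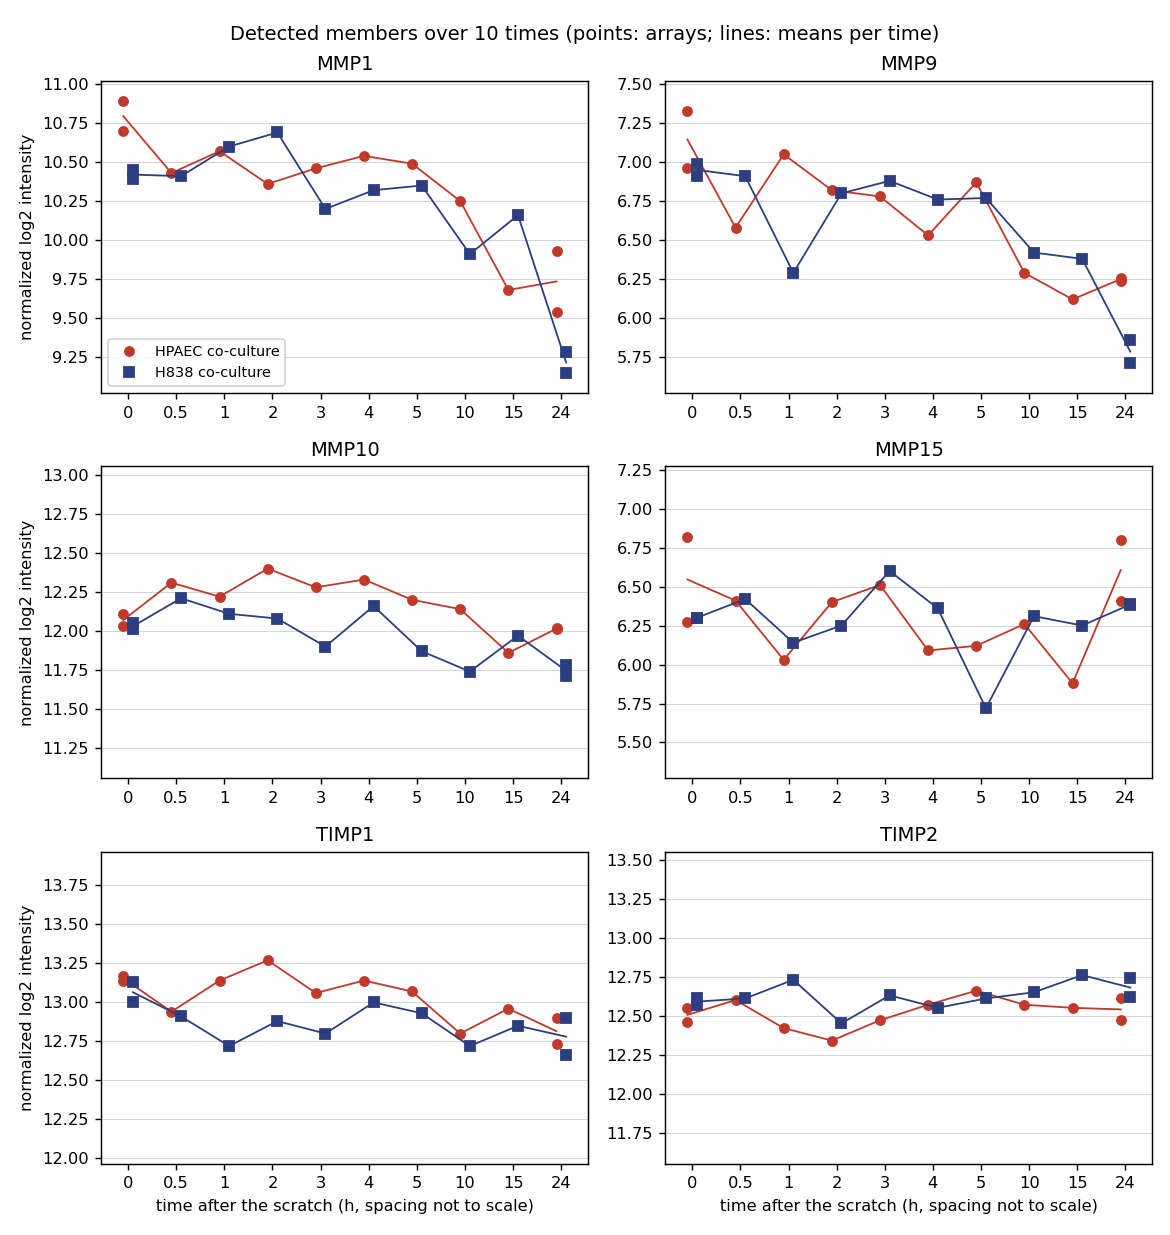
Normalized log2 intensity of the 6 tested genes by time after the scratch (hours, spacing not to scale), with 1 point for each array, circles for the HPAEC co-culture, squares for the H838 co-culture, and lines through the means per time. All panels span the same number of log2 units, apart from rounding, and MMP1 and MMP9 are low at 10, 15 and 24 h in both co-cultures.

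Under the main processing, the other tested enzymes did not pass any test of time. MMP10, stromelysin 2, had late values of 11.71 to 12.14 (median 11.92) against 12.01 to 12.11 (median 12.04) at 0 h, and these ranges overlap. Its highest values stood early, at 12.08 to 12.40 (median 12.21) for 0.5 to 2 h, but the early difference of 0.16 ± 0.08 did not pass (limma adjusted p = 0.424), and neither did the late one of -0.13 ± 0.07 (adjusted p = 0.237). The 95% interval of the late difference ran from -0.29 to 0.02. MMP15, a membrane-type enzyme, was dim and scattered, at 5.88 to 6.80 (median 6.35) late against 6.27 to 6.82 (median 6.30) at 0 h. Its late difference was -0.15 ± 0.12 (adjusted p = 0.411), and the interval of -0.40 to 0.09 leaves room for a change of about the size seen in TIMP1.

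TIMP1 inhibits most secreted metalloproteinases, with MMP9 its best known partner. At 24 h its log2 intensity was 12.90 and 12.73 beside HPAEC and 12.66 and 12.90 beside H838. At 0 h it was 13.17 and 13.14 beside HPAEC and 13.13 and 13 beside H838. Here too the groups did not overlap, but the difference of -0.29 ± 0.08 over the 8 arrays missed the threshold (limma adjusted p = 0.0716). Between 0.5 and 5 h TIMP1 ranged from 12.94 to 13.27 beside HPAEC and from 12.72 to 13 beside H838. At 10 and 15 h it was 12.80 and 12.96 beside HPAEC and 12.72 and 12.85 beside H838. The late window fell by 0.28 ± 0.07 (1.21-fold lower, adjusted p = 0.0102), with changes of -0.35 at 10 h, -0.20 at 15 h and -0.28 at 24 h (adjusted p = 0.0225, 0.197 and 0.0259). This call was lost without HPAEC replicate 2 at 0 h (-0.24, adjusted p = 0.0876), without both arrays with conflicting labels (-0.24, adjusted p = 0.101) and under median scaling (-0.24, adjusted p = 0.186).

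Counted over the family, 3 of the 6 tested genes were lower in the late window and 0 higher, with 7.56% of all 11494 genes called lower (either direction, 15.5%). The members were chosen with earlier results of these data known, so such counts describe the family and do not test it. The median change of the 6 was -0.22, beside 0.005 over all genes. The limma F test over the 9 times after the scratch called 2 of the 6, MMP1 (adjusted p = 0.000489) and MMP9 (adjusted p = 0.0061), with 22.9% of all genes called. For TIMP1, MMP10, MMP15 and TIMP2 that F test gave adjusted p = 0.0745, 0.0877, 0.108 and 0.49. The early window called 0 of the 6 (1 at an unadjusted p under 0.05) with 0.461% of all genes called (11.8% unadjusted), and the middle window 0 (0 unadjusted) with 15.3% (28.7% unadjusted). The comparison of 24 h with 0 h on the 8 arrays called 2 of the 6, both lower, with 4.65% of all genes called lower. Late arrays without overlap below 0 h were found for 3 of the 6 (MMP1, MMP9 and TIMP1) and for 2.58% of all genes, and arrays at 24 h without overlap below 0 h for the same 3 and for 8.04% of all genes.

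Within each BeadChip the late change kept its direction for all 3, although 0 genes of the family passed on either chip alone. Of all 11494 genes 0 passed on either chip alone as well, so this count says nothing particular to the family. MMP1 changed by -0.81 ± 0.14 on chip 1 and by -0.60 ± 0.12 on chip 2, MMP9 by -0.64 ± 0.16 and -0.76 ± 0.11, and TIMP1 by -0.28 ± 0.13 and -0.28 ± 0.12. Chip 1 held no H838 array after 0.5 h, so its late values come from the HPAEC group alone, and the late values of chip 2 come mostly from the H838 group.

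**Figure D3:**
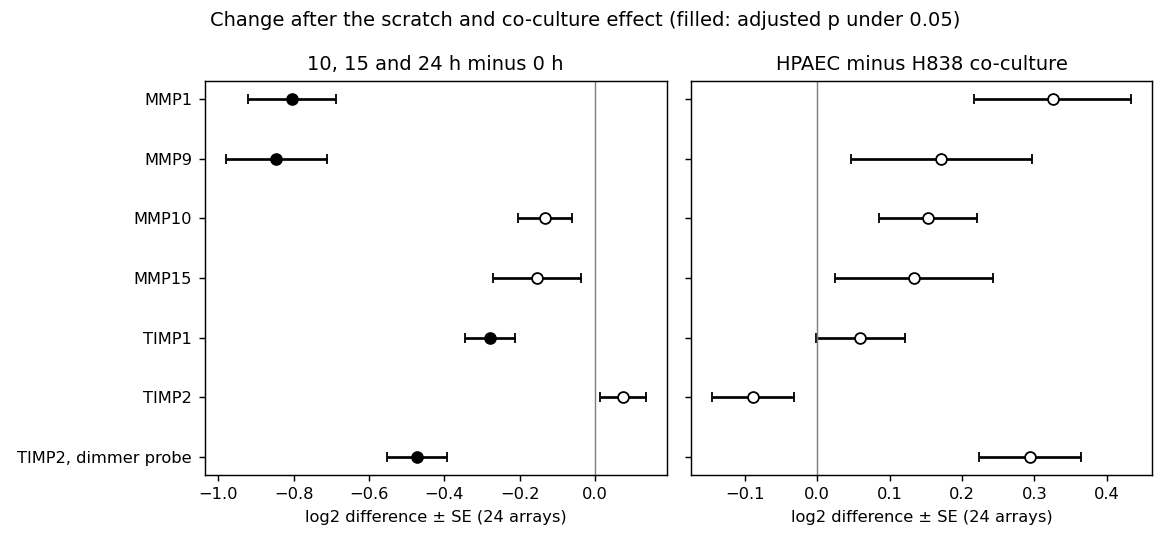
Log2 difference ± SE over 24 arrays for the late window minus 0 h (left) and for the HPAEC co-culture minus the H838 co-culture (right), filled where the limma adjusted p-value was under 0.05. In the late window MMP1, MMP9 and TIMP1 are filled below 0, and TIMP2 appears with both of its probes, which lie on opposite sides of 0. In the right panel no point is filled.

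The fall of MMP1 and MMP9 was seen in each co-culture. In a limma fit of each window's mean in each co-culture, the late change of MMP1 was -0.91 ± 0.21 beside HPAEC (adjusted p = 0.0238) and -0.87 ± 0.22 beside H838 (adjusted p = 0.0907), and that of MMP9 was -0.91 ± 0.20 beside HPAEC (adjusted p = 0.0169) and -0.86 ± 0.21 beside H838 (adjusted p = 0.0779). Of all genes, 2.02% were called lower in that window beside HPAEC and 0.348% beside H838. The changes differed between the co-cultures by -0.04 ± 0.32 for MMP1 and -0.06 ± 0.30 for MMP9, neither past the threshold (adjusted p = 0.996 and 0.994). On the 8 duplicated arrays, MMP1 changed by -1.06 ± 0.11 beside HPAEC and by -1.31 ± 0.12 beside H838 (adjusted p = 0.0191 and 0.0273), and MMP9 by -0.89 ± 0.12 and -1.24 ± 0.13 (adjusted p = 0.0259 and 0.0386), with 2.17% of all genes called lower beside HPAEC and 0.148% beside H838. The differences of 0.25 ± 0.16 for MMP1 and 0.34 ± 0.18 for MMP9 did not pass either (adjusted p = 0.569 and 0.479). Over the 3 windows together, limma's test of a co-culture difference in the change called 0 of the 6 tested genes (0 unadjusted) and 0% of all genes (4.61% at an unadjusted p under 0.05). SEs of this size limit what could be seen, and a p past the threshold in 1 co-culture only is not a difference between them.

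The co-culture comparison asked whether endothelial neighbours changed the levels of these transcripts in the tumour cells. With chip in the limma model it called 0 of the 6 tested genes, 2 at an unadjusted p under 0.05, with 2.02% of all genes called (19% unadjusted). That count over all genes was 232. It was 10 without H838 replicate 1 at 0 h, 18 without HPAEC replicate 2 at 0 h, 50 without either array at 0.5 h, 5 under median scaling, and 0 on each chip alone (1301 and 1070 unadjusted). MMP1 is given first because it had the smallest p-value of the family. It was higher beside HPAEC at 7 of 10 times, by 0.32 with a 95% interval of 0.09 to 0.56 before adjustment for the many genes. The exceptions were 1 h (10.57 beside HPAEC, 10.60 beside H838), 2 h (10.36 and 10.69) and 15 h (9.68 and 10.16). In the 4 pairs that shared time and chip the differences were 0.30 at 0 h and 0.02 at 0.5 h on chip 1, and 0.44 at 0 h and 0.71 at 24 h on chip 2. The chip 2 pairs use the arrays with conflicting labels. Over 13 alternatives the difference ran from 0.135 to 0.594 (limma adjusted p of 0.0348 to 0.798). It passed under 1 of them, without background correction, at 0.30 ± 0.08, where 466 of all genes were called. It was 0.16 with chip left out, 0.163 on chip 1 alone and 0.135 without the arrays with conflicting labels.

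MMP10 and TIMP1 had the most even differences over time. MMP10 was higher beside HPAEC at 9 of 10 times, by 0.03 at 0 h and by up to 0.40 at 10 h, where it was 12.14 beside HPAEC and 11.74 beside H838, with -0.11 at 15 h as the exception. TIMP1 was higher at 10 of 10 times, by 0.02 to 0.42, widest at 1 h with 13.14 beside HPAEC and 12.72 beside H838. Of all genes, 8.18% were higher beside HPAEC at 9 or more times and 2.43% at all 10. These differences are not adjusted for chip. At most times the HPAEC array lay on chip 1 and the H838 array on chip 2. With chip in the model the differences were 0.15 ± 0.07 for MMP10 (adjusted p = 0.227) and 0.06 ± 0.06 for TIMP1 (adjusted p = 0.644). With chip left out, MMP10 gave 0.19 ± 0.05 (adjusted p = 0.0126) and TIMP1 0.15 ± 0.05 (adjusted p = 0.0412). That model called 1723 of all 11494 genes, against 232 with chip in the model. Without the arrays with conflicting labels MMP10 gave 0.0837 (adjusted p = 0.814). In the 4 pairs on a shared chip MMP10 differed by -0.03, 0.10, 0.09 and 0.27, and TIMP1 by 0.04, 0.02, 0.14 and -0.05.

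MMP9 and MMP15 showed no even direction between the co-cultures. MMP9 was higher beside HPAEC at 5 of 10 times, from -0.33 at 0.5 h to 0.76 at 1 h, with a modelled difference of 0.17 ± 0.12 (adjusted p = 0.489). MMP15 was higher at 4 of 10 times, with 0.13 ± 0.11 (adjusted p = 0.54). Both signs turned without the arrays with conflicting labels, at -0.08 for MMP9 and -0.01 for MMP15. The 95% intervals, before adjustment for the many genes, ran from -0.09 to 0.44 for MMP9 and from -0.10 to 0.36 for MMP15. Both include differences in either direction. TIMP2, by its brighter probe, was higher beside HPAEC at 2 of 10 times (-0.09 ± 0.06, adjusted p = 0.417).

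TIMP2 was the only tested member with a second detected probe, and its probes disagreed. The brighter probe gave 12.47 to 12.76 (median 12.62) in the late window and 12.46 to 12.61 (median 12.56) at 0 h, a difference of 0.07 ± 0.06 (limma adjusted p = 0.48 in a fit of 15292 probes). The dimmer probe gave 7.95 to 8.50 (median 8.28) late and 8.50 to 8.91 (median 8.68) at 0 h. It fell by 0.47 ± 0.08 in that fit (adjusted p = 0.00121), where 6.59% of all probes were called lower. Its change was -0.36 at 10 h, -0.65 at 15 h and -0.41 at 24 h (adjusted p = 0.0484, 0.00332 and 0.00879), times at which 3.93%, 2.6% and 5.07% of all probes were called lower. On the 8 duplicated arrays it fell by 0.41 ± 0.09 (adjusted p = 0.0404), with 3.87% of all probes called lower.

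At 24 h the dimmer probe read 8.32 and 8.50 beside HPAEC and 8.10 and 8.27 beside H838, and at 0 h it read 8.91 and 8.77 beside HPAEC and 8.50 and 8.60 beside H838. At 24 h the brighter probe read 12.47 and 12.61 beside HPAEC and 12.74 and 12.62 beside H838, and at 0 h 12.55 and 12.46 beside HPAEC and 12.61 and 12.57 beside H838. The dimmer probe thus read no higher at 24 h than at 0 h on any array of the same co-culture. By chip, its late change was -0.62 ± 0.13 on chip 1, where all late arrays are beside HPAEC, and -0.40 ± 0.12 on chip 2, where both co-cultures have late arrays. The late difference of the brighter probe did not pass. Between co-cultures the dimmer probe was higher beside HPAEC at 9 of 10 times, by 0.29 ± 0.07 (adjusted p = 0.0559, with 1.2% of all probes called). The shared-chip pairs gave 0.41 and 0.38 on chip 1, and 0.18 and 0.31 on chip 2, where they use the arrays with conflicting labels. The difference was 0.27 under median scaling (limma adjusted p = 0.45) and 0.37 without the arrays with conflicting labels (adjusted p = 0.289). Under median scaling the late change of the dimmer probe was -0.38 (adjusted p = 0.0521). Which transcripts of TIMP2 each probe reads was not tested, because no probe sequence was used here, so no direction is given for TIMP2 as a gene.

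**Figure D4:**
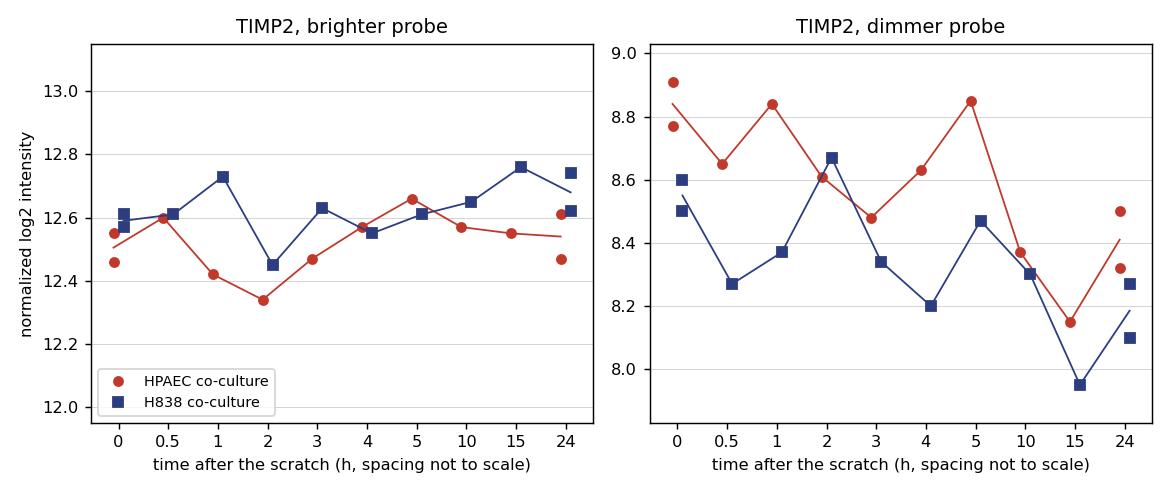
Normalized log2 intensity of the brighter (left) and the dimmer (right) TIMP2 probe by time after the scratch (hours, spacing not to scale), with 1 point for each array and lines through the means per time. The dimmer probe lies at 7.95 to 8.50 from 10 h on and at 8.50 to 8.91 at 0 h, and the brighter probe stays between 12.34 and 12.76.

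The time profiles of MMP1 and MMP9 ran close together, with Pearson's r = 0.93 over 10 time means adjusted for co-culture and chip. That of MMP1 with MMP10 was 0.78, and with TIMP1 0.59. Profiles share arrays and normalization, and these values describe the 10 points only. The genes nearest to MMP1 among 11494 were S100A6, a calcium-binding protein (r = 0.99, late change -0.23), VGF, a secreted neuropeptide precursor (r = 0.985, -0.91), and GAL, the neuropeptide galanin (r = 0.973, -0.67). Nearest to MMP9 were RTEL1, a telomere helicase (r = 0.967, -0.18), TLCD1 (r = 0.957, -0.30) and VGF (r = 0.949, -0.91). Nearest to TIMP1 were TECR, an enzyme of fatty acid elongation (r = 0.948, -0.21), TAGLN, an actin-binding protein (r = 0.932, -0.48), and TSPAN4, a tetraspanin (r = 0.902, -0.27). At r above 0.9 stood 44 genes for MMP1, 26 for MMP9 and 3 for TIMP1.

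The rest of the family added 1 gene. Of 17 other metalloproteinase and TIMP genes on the array, 10 were detected on 0 arrays, among them the stromelysin MMP3, the collagenases MMP8 and MMP13, the macrophage elastase MMP12 and TIMP4. MMP25, a membrane-anchored enzyme, was the exception among the 7 tested genes. It was higher beside HPAEC by 0.33 ± 0.07 (limma adjusted p = 0.0213), and it fell by 0.29 ± 0.07 in the middle window (adjusted p = 0.0161) and by 0.54 ± 0.07 in the late window (adjusted p = 0.000219). The co-culture call was lost without the arrays with conflicting labels (0.33 ± 0.11, adjusted p = 0.288), on each chip alone (0.419 and 0.487), under median scaling (0.343), and without either array at 0.5 h (0.0684), H838 replicate 1 at 0 h (0.107), HPAEC replicate 2 at 0 h (0.106) or HPAEC replicate 2 at 24 h (0.0656). The late call was lost on each chip alone (0.235 and 0.218). The middle one was lost there too (0.297 and 0.567), under median scaling (0.0616), and without HPAEC replicate 1 at 0 h (0.0542), H838 replicate 1 at 0 h (0.095) or the arrays with conflicting labels (0.0552). The late median of the 7 was -0.05. Of 16 ADAM and ADAMTS genes, which shed cell surface proteins or cut proteoglycans, 10 were detected on 0 arrays and 5 tested, and 0 of these 5 passed the co-culture, time or window tests.

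Genes that activate, bind or clear metalloproteinases gave 0 calls higher and 2 lower in the late window among 10 tested, with a median of -0.08. Lower calls in that window made up 7.56% of all genes. PLAU, the urokinase that starts the plasmin cascade, was higher by 0.40 ± 0.08 in the middle window (limma adjusted p = 0.00416) and by 0.59 at 4 h, but by 0.09 late (adjusted p = 0.479). Its receptor gene PLAUR fell by 0.24 ± 0.06 late (adjusted p = 0.0184), and SDC1, a cell surface proteoglycan chosen for mention after its values were seen, by 0.28 ± 0.09 (adjusted p = 0.0374). CD44 and BSG, surface partners of MMP9 and MMP1 also chosen after their values were seen, differed by -0.08 and 0.03 late and did not pass. Of 5 tested other inhibitors, 2 rose late. They were TFPI2, a matrix-bound inhibitor of serine proteases (0.44 ± 0.12, adjusted p = 0.0178), and THBS1, thrombospondin 1 (0.45 ± 0.10, adjusted p = 0.00885), the last named after its values were seen. RECK, a membrane-anchored metalloproteinase inhibitor, passed the time test with its widest difference of 0.44 at 24 h (adjusted p = 0.0405), although its late mean of 0.11 ± 0.12 did not (adjusted p = 0.56). All genes called higher late made up 7.93%.

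Of 13 tested matrix substrates 11 did not pass in the late window, 1 rose and 1 fell, a share near the 15.5% of all genes called, with a median of -0.01. The collagen III gene COL3A1 rose by 0.33 ± 0.09 (limma adjusted p = 0.0238) and COL18A1, which encodes a basement membrane collagen, fell by 0.28 ± 0.08 (adjusted p = 0.0304), both named after their values were seen. COL12A1, a fibril-associated collagen detected on 19 arrays, passed the time test (adjusted p = 0.0366) with its widest difference of -0.86 at 2 h. The collagen I genes COL1A1 and COL1A2, detected on 24 arrays, differed by -0.04 and 0.15 late and did not pass. They were chosen after their values were seen. COL1A1, COL1A2 and COL3A1 also stand on the list of 10 fibroblast markers, of which 8 were tested. Of these 8, 3 rose late (COL3A1, LUM and POSTN) and 1 fell (PDGFRB), beside 7.93% of all genes called higher and 7.56% lower. PDGFRA was detected on 0 arrays and DCN on 1. The summed raw intensity of that list was 25790 to 32990 beside HPAEC and 28020 to 40740 beside H838. Among 7 leukocyte markers, PTPRC and CD3E were detected on 0 arrays, LYZ and MS4A1 on 2, CD14 on 5, and ITGB2 and CD68 on 24. Of the 5 tested, CD68, a lysosomal protein of macrophages, fell by 0.69 late (limma adjusted p = 1.89e-05), and the other 4 did not pass. Beside this call, 7.56% of all genes were called lower late. The list summed to 3340 to 4709 beside HPAEC and 3089 to 4530 beside H838. The part of these in the changes of the metalloproteinases was not tested.

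AP-1 and ETS factors, families whose motifs stand in many metalloproteinase promoters, were called in all 3 windows. Of 11 tested genes 4 were higher in the early window, 4 higher in the middle window, and 1 higher and 3 lower in the late window, beside 0.461%, 15.3% and 15.5% of all genes called in these windows. FOSL1, the Fra-1 subunit of AP-1, was detected on 21 of 24 arrays. It rose by 0.53 ± 0.08 early (limma adjusted p = 0.00345) and 0.59 ± 0.08 in the middle window (adjusted p = 0.000168). FOSL1 fell by 0.41 ± 0.08 late (adjusted p = 0.00303). ETV5, an ETS factor, rose by 0.91 ± 0.11 in the middle window (adjusted p = 3.8e-05) and differed by 0.09 late (adjusted p = 0.606). FOS and FOSB also passed the time test, but were detected on 6 and 17 arrays, so no fold is given for them. The counts above include both among the early higher and the late lower calls, and FOSB among the middle ones. Since FOS was undetected on most arrays, its calls there are no support for a change of the group. The co-culture test called FOSL1 (0.36 ± 0.07, adjusted p = 0.0214), JUN (0.28 ± 0.06, adjusted p = 0.0262) and ETS1 (-0.26 ± 0.06, adjusted p = 0.0479), and called no gene without the arrays with conflicting labels. Over the same windows MMP10, whose promoter window holds AP-1 letters, differed by 0.16 early, 0.07 in the middle and -0.13 late, none past the threshold. No promoter window was at hand for MMP1 and MMP9. A link between these factors and the metalloproteinase genes was not tested.

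**Figure D5:**
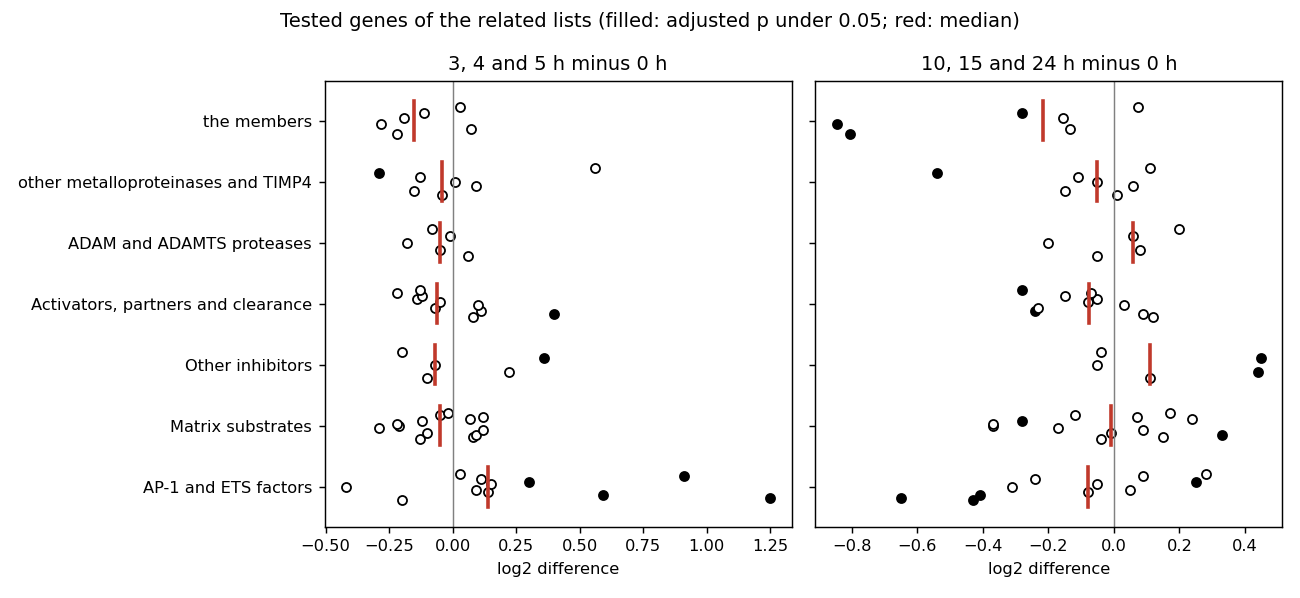
Log2 difference of each tested gene, by list, for the middle window minus 0 h (left) and the late window minus 0 h (right), with filled points for a limma adjusted p-value under 0.05 and a red bar at the list median. In the late window the 6 tested metalloproteinase and inhibitor genes of the first row have a median of -0.22, and 3 of them are filled below 0.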

How the data were processed

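Expression was measured in 24 H838 lysates on Illumina bead arrays. Per the file headers, the deposited non-normalized table holds a mean bead intensity per probe and array, with a detection p-value against negative control beads. The series matrix, used as an alternative, holds the authors' normalized intensity, and the method is not given in the sources used here.

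Background was corrected with limma's normal-exponential model (offset 16), with negative control statistics derived from those p-values. Quantile normalization and log2 followed. A probe was kept when detected at p under 0.01 by 2 or more arrays, and the brightest kept probe represented its gene (11494 genes, 15292 named probes). R 4.3.3 with limma 3.58.1 fitted 10 times, co-culture and chip (12 residual degrees of freedom), co-culture by window and chip (15), and the 8 arrays at 0 and 24 h (3). Tests were two-sided with the Benjamini-Hochberg adjustment over all genes and a threshold of 0.05. The fits were tested on simulated data.

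Members and lists were chosen with earlier results of these data known. All members were described. From each related list the genes past the co-culture or time test were to be named, at most 4 with the smallest adjusted p. Genes named beyond that were chosen after their values were seen. Arrays have no read depth, and their number limits the precision. Whether arrays with the same replicate number share a batch was not settled. The differences between replicates 1 and 2 correlated over genes by -0.05 to 0.13, which cannot exclude a shared batch. Replicates 1 and 2 also lay on different chips, except for H838 at 24 h, so replicate and chip are largely mixed. Promoter windows came from RefSeq, and probe sequences and protein sequences were not used here. The alternatives were other normalizations, background corrections, filters, probe and chip rules, a replicate block, and leaving out arrays.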

Additional observations from a re-analysis of the deposited data

How the results depend on the processing

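The late fall of MMP1 and MMP9 kept its direction and call in the limma fits under 11 of 13 and 10 of 12 alternatives, and was called without each array in turn. The exceptions were the chips alone, where adjusted p was 0.235 and 0.169 for MMP1 and 0.24 and 0.134 for MMP9. There the late window and the time test called 0 family genes on chip 1 alone and 0 on chip 2 alone. Of all 11494 genes the late window also called 0 on each chip alone, and the time test 4 on chip 1 and 20 on chip 2. The time test called 4 family genes with the authors' series matrix and 4 without background correction, against 2. Of all genes it called 3269 and 3480 there, against 2629. The co-culture test called 1 family gene without background correction, 2 in a model that leaves chip out and 2 where chip is a random block, against 0. Of all genes it called 466, 1723 and 1949 there, against 232. Leaving out single arrays moved the family count to 2 to 3 for time, 2 to 3 for the late window and 0 to 2 for 24 h minus 0 h. The last was 0 without HPAEC replicate 1 at 24 h (MMP1 -1.10, MMP9 -1.15, both adjusted p = 0.0662) and 1 without H838 replicate 2 at 0 h (MMP9 adjusted p = 0.0603). It was 0 on chip 2 alone, and 0 without both arrays with conflicting labels, where adjusted p was 0.108 for MMP1 and MMP9. Of all genes the comparison of 24 h with 0 h called 1093 in the main fit, and 3, 17, 0 and 0 in these settings in turn. The family counts thus fell along with the calls over all genes. TIMP1 at 24 h passed under 6 of 12 alternatives, with adjusted p of 0.00614 to 0.305. With the replicate block beside chip, the late window called 2 family genes against 3, since TIMP1 gave -0.23 (adjusted p = 0.0595), and no other call of these genes changed.

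Signs turned for values that never passed, except 1. TIMP2 as the mean of both probes gave -0.20 late (adjusted p = 0.0294) and 0.10 between co-cultures, and the brighter probe -0.0333 late on chip 1 alone. On chip 1 alone the co-culture difference was -0.138 for MMP9 and -0.0249 for MMP15, and MMP15 gave 0.0399 late. Without both arrays with conflicting labels it was -0.0811 for MMP9 and -0.0103 for MMP15, and MMP15 gave 0.00675 late. Without single arrays MMP15 ranged from -0.0487 (without HPAEC replicate 2 at 0 h) to 0.209 between co-cultures and from -0.222 to 0.0147 (without the same array) late. The cause was not tested. Over all genes, median scaling called 571 late (72.9% higher, against 51.2% of 1780) and 585 in the middle window (35.2% higher, against 52.3% of 1756). The comparison of 24 h with 0 h could not be fitted on chip 1 alone.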
